A study of Mus musculus with 12 samples.

Results

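Genes of the activator protein 1 (AP-1) family were examined in follicular (FO) B cells. The members are the 8 genes Fos, Fosb, Fosl2, Jun, Junb, Jund, Atf3 and Batf, taken by gene symbol from a table of 22561 genes, and the question asked of them was which stand apart only in unstimulated cells. FO B cells had been sorted from C57BL6 mice aged 10 weeks, with 3 samples in each of 4 groups: unstimulated, or stimulated for 12 h with IFNα (written IFNa in the labels), with CpG, or with both (CpG + IFNα). No group carried an engineered allele according to the labels. CpG is a synthetic oligodeoxynucleotide sensed by Toll-like receptor 9, and IFNα is a type I interferon. Libraries were made by bulk RNA barcoding sequencing (BRB-seq). It tags the 3′ end of each transcript with a barcode for the sample and an identifier for the molecule (UMI). UMI counts therefore do not grow with transcript length. They still depend on how far the annotation covers the 3′ end of each gene, so that comparisons of level between genes are approximate. Whether the unstimulated cells were also kept in culture for 12 h is not stated in the sources used here, so that stimulation and time in culture cannot be told apart in any comparison with them.

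AP-1 is a dimer of basic leucine zipper (bZIP) proteins. FOS proteins cannot pair with themselves and bind DNA with a JUN partner, JUN proteins pair with FOS, ATF and BATF proteins or with each other, and BATF lacks an activation domain and binds composite elements together with IRF4 or IRF8 in lymphocytes. Fos, Fosb, Jun, Junb and Atf3 are immediate-early genes, which are switched on within minutes by MAP kinase and calcium signals, also by handling of cells, and whose transcripts are short-lived. Jund is the JUN gene that resting cells usually express steadily.

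The promoters of these genes are shown because the members divided into patterns across the 4 groups. RefSeq (GRCm38.p6) had a promoter window of 300 bases, from 250 before to 50 after the annotated start, for all 8 members. The sequences of Fos, Fosb and Junb, which were high only in unstimulated cells or nearly so, and of Batf, which was high with CpG, follow in 5′ to 3′ direction of the gene. Capitals mark TGACG, the core of the cAMP response element (CRE) bound by CREB and ATF proteins, and the TATA box TATAAA. All motifs were searched on both strands. The Fos window lies at chr12:85473640-85473939 on the forward strand, that of Fosb at chr7:19309996-19310295 on the reverse strand, that of Junb at chr8:84978699-84978998 on the reverse strand and that of Batf at chr12:85686470-85686769 on the forward strand.
Fos: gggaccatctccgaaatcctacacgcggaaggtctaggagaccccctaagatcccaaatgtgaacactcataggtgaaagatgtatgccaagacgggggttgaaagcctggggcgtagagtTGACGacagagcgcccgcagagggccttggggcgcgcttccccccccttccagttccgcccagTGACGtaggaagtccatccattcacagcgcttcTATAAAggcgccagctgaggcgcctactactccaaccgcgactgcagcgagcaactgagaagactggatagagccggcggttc
Fosb: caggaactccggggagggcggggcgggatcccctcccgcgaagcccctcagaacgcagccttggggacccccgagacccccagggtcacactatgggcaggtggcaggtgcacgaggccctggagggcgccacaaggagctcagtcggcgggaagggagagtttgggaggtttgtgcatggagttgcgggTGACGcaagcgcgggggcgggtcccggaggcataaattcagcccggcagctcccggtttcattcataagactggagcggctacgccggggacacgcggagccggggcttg
Junb: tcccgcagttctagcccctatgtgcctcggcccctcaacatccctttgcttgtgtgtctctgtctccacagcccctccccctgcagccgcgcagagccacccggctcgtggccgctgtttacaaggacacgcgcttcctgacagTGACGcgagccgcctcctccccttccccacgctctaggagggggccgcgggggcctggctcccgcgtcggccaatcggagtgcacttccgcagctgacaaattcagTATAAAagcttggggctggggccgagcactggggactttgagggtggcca
Batf: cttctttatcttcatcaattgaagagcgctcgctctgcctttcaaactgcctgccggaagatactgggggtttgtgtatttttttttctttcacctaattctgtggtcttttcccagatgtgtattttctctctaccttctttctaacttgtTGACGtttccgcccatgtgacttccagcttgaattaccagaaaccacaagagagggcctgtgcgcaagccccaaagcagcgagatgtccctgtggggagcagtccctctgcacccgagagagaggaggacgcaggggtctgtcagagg

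The core TGACG was in the windows of 5 of the 8 members (Fos, Fosb, Junb, Atf3 and Batf), against 20.8% of the 32851 promoter windows of the table. Fos held it at 2 positions, the nearer of them 66 to 62 bases before the start, and Fosb held it 60 to 56 bases before the start. The core therefore occurred both in genes that were lower after stimulation and in Batf, which was higher with CpG. TATAAA was in 2 of 8 windows (13.6% of all), those of Fos and Junb. The NF-κB site was in 3 of 8 (8.46% of all), those of Fos, Fosb and Fosl2, and the GC box GGGCGG was in 6 of 8 (35.7% of all). The EGR site GCGNGGGCG was in 2 of 8 (5.55% of all), the CCAAT box in 3 of 8 (37.4% of all), and the core of the interferon-stimulated response element (GAAA and again GAAA with 2 bases between) in 1 of 8 (3.44% of all), which was Fosl2. The whole element TGACGTCA, the AP-1 site TGANTCA, the CArG box and the STAT site TTCNNNGAA were in 0 of 8 windows, against 1.79%, 7.81%, 1.63% and 8.3% of all. Sites more than 250 bases before the start lie outside the windows. A variant of a pattern is not matched either, such as TGACATCA in the window of Jun. These counts of 0 therefore do not show that the genes lack such sites. The motifs overlap in part, since TGACGTCA contains TGACG and GCGNGGGCG can share bases with a GC box. A match is a run of letters and not a measured binding site. The windows follow the RefSeq start, which was not always that of the gene in GENCODE. The RefSeq start of Jund lies 1210 bases upstream of the GENCODE start, and this window held none of the 11 motifs. That of Atf3 lies 34706 bases inside the GENCODE gene, 7 bases from the start of a GENCODE transcript, and that of Fosl2 lies 671 bases inside. For the other 5 members the starts differed by at most 51 bases.

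Levels are given as normalized CPM, which are UMI counts relative to the library total as scaled by edgeR's TMM method. Of the 8 members, 7 passed the filter on low counts and were tested among 9431 genes, and Fosl2 did not. In 5 members, Fos, Fosb, Jun, Junb and Jund, every unstimulated sample lay above each of the 9 stimulated samples, an order that 9.63% of all genes tested also had. A gene was called where its log2 fold change exceeded 1 in size and its adjusted p (Benjamini-Hochberg, over all genes tested) was under 0.1. Being apart only in unstimulated cells was taken as being called in the same direction against unstimulated cells in all 3 stimulated groups and called in none of the 3 comparisons among these groups. Fos and Junb met this rule with the unstimulated cells higher, 2 of 7 members tested, against 0.816% of all genes tested (77 genes), and no member met it with the unstimulated cells lower, as 0.392% of all genes did. Both genes also met it with the other scalings, without the filter, with DESeq2 and with any 1 sample left out. A missed call among the stimulated groups does not show that they are equal, and the intervals of these differences are given below.

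**Figure D1:**
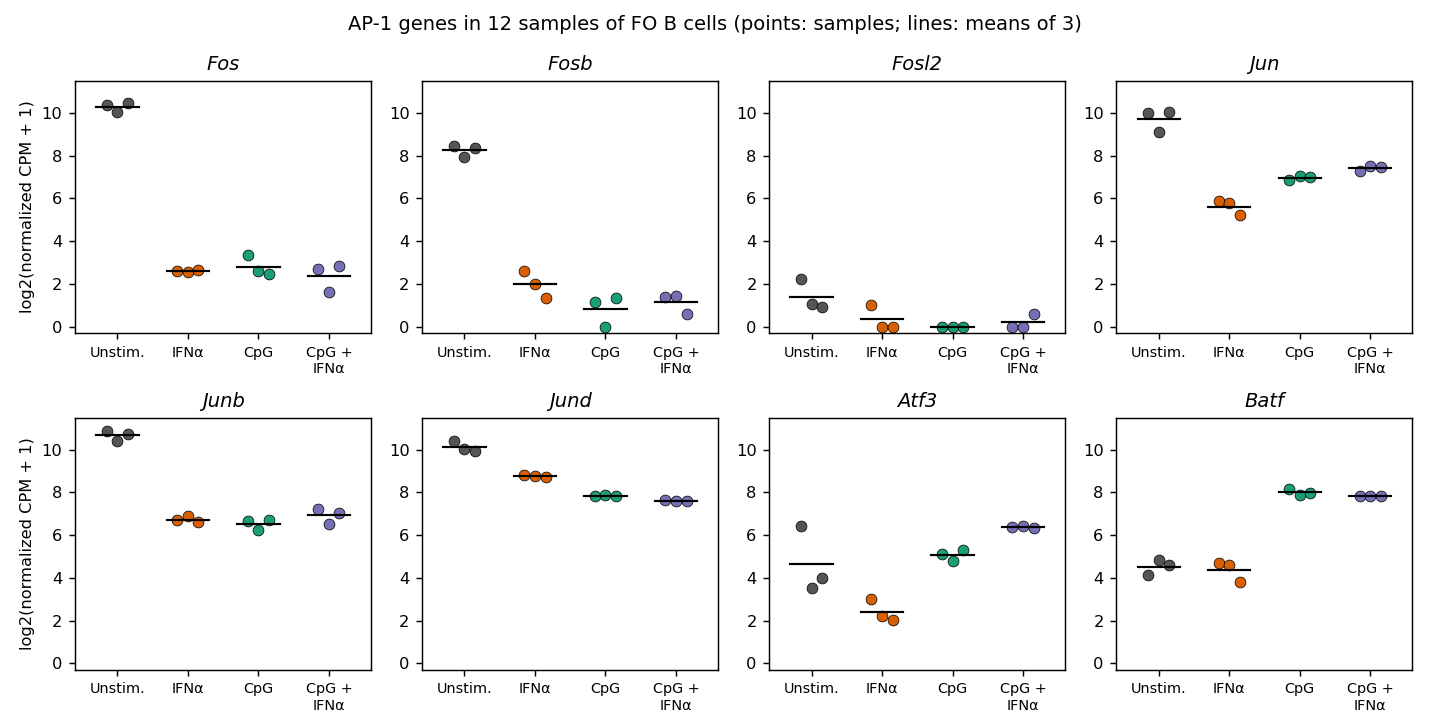
Normalized CPM (log axis) of the 8 AP-1 members in each of the 12 samples, by group, with group means. The unstimulated samples of Fos lie between 1065.36 and 1415.42 CPM and all stimulated samples between 2.07 and 9.21 CPM, whereas Batf is above 225 CPM in the 6 samples that received CpG and below 28 CPM in the other 6.

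Fos, the founding FOS protein gene (GRCm38 chromosome 12, 85473890 to 85477273), had 1325.86, 1065.36 and 1415.42 CPM in the 3 unstimulated samples. It had 5.04, 4.86 and 5.34 CPM with IFNα, 9.21, 4.99 and 4.49 CPM with CpG, and 5.45, 2.07 and 6.17 CPM with CpG + IFNα. The unstimulated samples were thus high without overlap, and the 3 stimulated groups lay on top of each other. Fos fell by 7.95 on the log2 scale with IFNα (standard error 0.21, adjusted p = 6.13e-24 by edgeR's quasi-likelihood test), with log2 fold changes of -7.67 with CpG (adjusted p = 7.6e-25, same test) and -8.20 with CpG + IFNα (adjusted p = 1.37e-25, same test). Among all 9431 genes, the Fos change was the lowest with IFNα, the 3rd lowest with CpG + IFNα and the 8th lowest with CpG. The stimulated groups did not differ detectably, with log2 differences of 0.28 between CpG and IFNα (95% interval -0.61 to 1.17), -0.26 between CpG + IFNα and IFNα (-1.17 to 0.66) and -0.54 between CpG + IFNα and CpG (-1.36 to 0.28). These intervals are wide because the stimulated samples held 5 to 15 counts of Fos each, and differences larger than the fold used for a call remain inside all 3.

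Fosb, a close relative of Fos (chromosome 7, 19302696 to 19310051), showed a similar pattern at a lower level. It had 352, 245 and 326 CPM in unstimulated cells, against 5.04, 3.04 and 1.53 CPM with IFNα, 1.23, 0 and 1.498 CPM with CpG, and 1.64, 1.72 and 0.514 CPM with CpG + IFNα. Unstimulated samples again lay far above the rest. Fosb fell by 6.63 on the log2 scale with IFNα (standard error 0.25, adjusted p = 1.61e-20 by edgeR) and its log2 fold change was -7.76 with CpG + IFNα (standard error 0.25, adjusted p = 8.89e-23 by edgeR). With CpG the samples held 2, 0 and 3 counts, at the limit of detection, so the pooled counts were compared instead, 5 against 986, and the unstimulated level was 313.496 times that with CpG after scaling (95% exact interval of the counts 134 to 968, counting error only). Fosb missed the rule through 1 comparison, CpG against IFNα, with a log2 difference of -1.54 (95% interval -3.03 to -0.06, adjusted p = 0.0586 by edgeR). This call rests on 5 counts against 12, a ratio of 3.06 for IFNα to CpG with a 95% exact interval of 1.004 to 11.1, and it was lost without IFNα replicate 1 (adjusted p = 0.213), without IFNα replicate 2 (adjusted p = 0.115) or without CpG replicate 2 (adjusted p = 0.185), all by edgeR. CpG + IFNα against IFNα was not called, at -1.13 (95% interval -2.44 to 0.17, adjusted p = 0.113 by edgeR), but it was called without unstimulated replicate 2 (adjusted p = 0.0934) or IFNα replicate 3 (adjusted p = 0.0625), and at -1.86 after drawing all libraries down to the smallest total (adjusted p = 0.0365), all by edgeR. In the F test of edgeR for any difference among the 3 stimulated groups, the adjusted p was 0.116 for Fosb and 0.458 for Fos.

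Junb, a JUN family gene whose protein can counter that of Jun (chromosome 8, 84974484 to 84978718), had the highest mean level of the members in unstimulated cells. It had 1904.61, 1356.3 and 1716.32 CPM there, 103, 119 and 96.2 CPM with IFNα, 100.08, 75.6 and 103 CPM with CpG, and 147, 92.1 and 129 CPM with CpG + IFNα. The unstimulated samples lay above all others, while the stimulated groups overlapped one another. Junb was 15.6-fold lower with IFNα (log2 fold change -3.96, standard error 0.16, adjusted p = 4.71e-20 by edgeR), 17.7-fold lower with CpG and 13.7-fold lower with CpG + IFNα. Here the counts were high enough for narrow intervals. The log2 difference was -0.19 between CpG and IFNα (95% interval -0.53 to 0.16), 0.19 between CpG + IFNα and IFNα (-0.14 to 0.52) and 0.38 between CpG + IFNα and CpG (0.05 to 0.70, adjusted p = 0.135 by edgeR), so that a difference as large as the fold for a call lies outside all 3. The F test among the stimulated groups gave Junb an adjusted p of 0.0971 by edgeR. An exon of Prdx2 on the opposite strand overlaps Junb, and the strand setting of the counting is not given in the sources used here. Prdx2 was counted at 63.5 ± 1.90 CPM (SD, n = 3) in unstimulated cells and at 90.8 ± 5.31 CPM (SD, n = 3) with CpG + IFNα, whereas Junb stood at 1659 and 123 CPM, and reads of the overlap cannot be told apart.

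Jun, the main JUN partner of FOS (chromosome 4, 95049034 to 95052222), was also highest in unstimulated cells but kept a graded level after stimulation. Its levels were 1025.56, 556.211 and 1054.5 CPM in unstimulated cells, 57.5, 54.1 and 35.9 CPM with IFNα, 115, 133 and 128 CPM with CpG, and 154, 184 and 178 CPM with CpG + IFNα. None of the 4 groups overlapped, in the order IFNα, CpG, CpG + IFNα, unstimulated. Of all genes tested, 32.4% had no overlap in either direction between IFNα and unstimulated cells. The share was 71.7% to 73.9% where a group with CpG was compared with unstimulated or IFNα cells, and 28.2% between CpG + IFNα and CpG. Jun was 18.0-fold lower with IFNα than in unstimulated cells (log2 fold change -4.17, standard error 0.19, adjusted p = 2e-18 by edgeR), 7.03-fold lower with CpG and 5.11-fold lower with CpG + IFNα. Between the stimulated groups, Jun was 2.56-fold higher with CpG than with IFNα (95% interval of the log2 difference 0.94 to 1.77, adjusted p = 5.8e-07 by edgeR) and 3.52-fold higher with CpG + IFNα than with IFNα (adjusted p = 7.59e-10 by edgeR). CpG + IFNα and CpG differed by 0.46 on the log2 scale (95% interval 0.12 to 0.80, adjusted p = 0.0731 by edgeR), under the fold for a call, and this adjusted p rose to 0.155 by DESeq2. Unlike Fos, Jun therefore did not stand apart in unstimulated cells alone.

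Jund (chromosome 8, 70698949 to 70700616) changed least with IFNα among the members that fell in all 3 comparisons with unstimulated cells. It had 1373, 1032 and 996 CPM in unstimulated cells, 444, 437 and 421 CPM with IFNα, 228, 236 and 225 CPM with CpG, and 202, 190.093 and 194 CPM with CpG + IFNα. The 4 groups were stepped without overlap, beside the shares of all genes given for Jun, and the samples within each stimulated group lay close together. Jund was 2.61-fold lower with IFNα (log2 fold change -1.39, standard error 0.11, adjusted p = 1.02e-11 by edgeR), 4.94-fold lower with CpG and 5.81-fold lower with CpG + IFNα. With CpG + IFNα it was also 2.22-fold lower than with IFNα (log2 difference -1.15, adjusted p = 2.2e-10 by edgeR), which took it out of the rule. CpG against IFNα gave -0.92 (adjusted p = 3.02e-08 by edgeR), just under the fold for a call, and CpG + IFNα against CpG gave -0.23 (95% interval -0.48 to 0.01, adjusted p = 0.237 by edgeR). The order of the single stimuli was thus opposite for Jun, lowest with IFNα, and for Jund, lower with CpG.

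Atf3, a stress-induced repressor of the ATF group (chromosome 1, 191170296 to 191218039), did not separate unstimulated from stimulated cells. Its levels were 86.4, 10.7 and 15.001 CPM in unstimulated cells, 7.06, 3.65 and 3.05 CPM with IFNα, 33.8, 26.4 and 37.9 CPM with CpG, and 82.9, 84.2 and 80.7 CPM with CpG + IFNα. Unstimulated replicate 1 stood as high as the CpG + IFNα samples and the other 2 unstimulated samples lay below every CpG sample. The log2 fold change against unstimulated cells was -3.12 with IFNα (standard error 0.55, adjusted p = 5.64e-05 by edgeR), -0.21 with CpG (95% interval -0.93 to 0.52, adjusted p = 0.614 by edgeR) and 1.11 with CpG + IFNα (standard error 0.31, adjusted p = 0.00191 by edgeR). Without unstimulated replicate 1 these were -1.57 (adjusted p = 0.00785), 1.36 (adjusted p = 7.63e-05) and 2.68 (adjusted p = 6.6e-12), all by edgeR, so the comparison with CpG turned from not called to called higher. Without unstimulated replicate 2 or 3, the log2 fold change with CpG + IFNα was 0.73 in both cases, under the fold for a call. All 4 groups shared 1 estimate of the spread, so that these samples also enter the errors of the comparisons among stimulated groups. Atf3 was 7.55-fold higher with CpG than with IFNα (log2 difference 2.92, adjusted p = 1.52e-05 by edgeR), and 2.49-fold higher with CpG + IFNα than with CpG (95% interval of the log2 difference 0.73 to 1.91, adjusted p = 0.00152 by edgeR), without overlap of the samples, as for 71.7% and 28.2% of all genes in the respective comparisons. Without unstimulated replicate 1 the latter log2 difference was still 1.32, with an adjusted p of 3.54e-08 by edgeR. By DESeq2 the difference between CpG + IFNα and CpG kept its size, at 1.36, but not its call (adjusted p = 0.327). The same held for CpG + IFNα against unstimulated cells, at 1.16 (adjusted p = 0.159 by DESeq2).

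Batf (chromosome 12, 85686669 to 85709087) was the member whose level followed CpG alone. It had 16.4, 27.8 and 22.9 CPM in unstimulated cells and 25.2, 23.1 and 13.0 CPM with IFNα, against 287, 232 and 252 CPM with CpG and 229.645, 229.423 and 226 CPM with CpG + IFNα. Unstimulated and IFNα samples overlapped each other, and all 6 samples with CpG lay far above them. Batf was 11.6-fold higher with CpG than in unstimulated cells (log2 fold change 3.53, standard error 0.17, adjusted p = 4.1e-18 by edgeR) and 10.3-fold higher with CpG + IFNα (log2 fold change 3.36, adjusted p = 9.55e-18 by edgeR). IFNα made no detectable difference either alone, with a log2 fold change of -0.13 (95% interval -0.64 to 0.39), or on top of CpG, with -0.17 (95% interval -0.41 to 0.07).

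Fosl2, which encodes the FOS relative FRA-2 (chromosome 5, 32135801 to 32157842), was near the limit of detection. It had 4, 1 and 1 counts in unstimulated cells, 1, 0 and 0 with IFNα, 0, 0 and 0 with CpG, and 0, 0 and 1 with CpG + IFNα. At this depth, 3 counts correspond to 1.03 to 3.21 CPM per sample, and Fosl2 did not pass the filter. Without the filter, edgeR gave Fosl2 an adjusted p of 0.0217 with CpG, 0.0626 with CpG + IFNα and 0.371 with IFNα, each against unstimulated cells, and DESeq2, also run without it, called Fosl2 lower with CpG. These calls rest on 6 unstimulated counts in all, against 0 with CpG and 1 with CpG + IFNα, and against the limit of 3 counts per CpG sample the unstimulated level was at least 1.02-fold higher.

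The members together fell from a summed level of 5310 ± 920 CPM (SD, n = 3) in unstimulated cells to 623 ± 40.3 CPM with IFNα, 744 ± 33.7 CPM with CpG and 807 ± 20.8 CPM with CpG + IFNα (SD, n = 3 each). The lowest unstimulated sample, at 4295 CPM, was above the highest stimulated sample, at 823 CPM. The makeup of the family also differed between groups, in shares of all AP-1 UMIs. In unstimulated cells Junb held 31.3%, Fos 24.0%, Jund 21.5%, Jun 16.3% and Fosb 5.79% (means of 3 samples). With IFNα, Jund alone held 69.8% ± 2.88 (SD, n = 3). With CpG, Batf and Jund held 34.4% and 30.9%, and with CpG + IFNα Batf, Jund and Jun held 28.3%, 24.2% and 21.4%, followed by Junb at 15.1% and Atf3 at 10.2%. Fos and Fosb together held at least 27.6% in each unstimulated sample and at most 1.56% in each stimulated sample. In bulk samples, fewer cells that express a gene and less RNA per cell cannot be told apart.

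**Figure D2:**
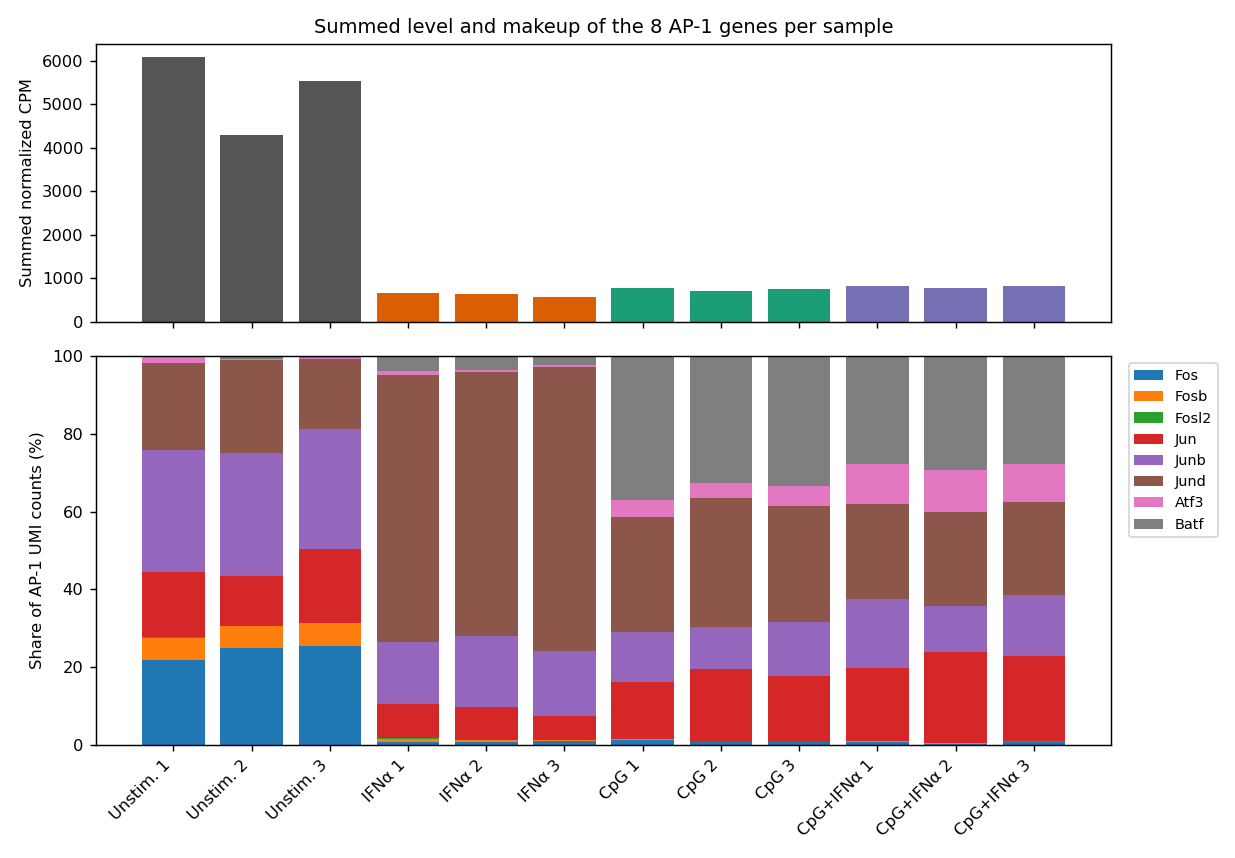
Share of each member in all AP-1 UMIs (percent, stacked, starting at 0) in each of the 12 samples, by group. FOS genes are a large part only in unstimulated cells, Jund fills 69.8% on average with IFNα, and Batf is the largest part on average in both groups with CpG.

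Across comparisons, the members called were read against the share of all genes called in the same direction. IFNα against unstimulated cells called 6 of the 7 members tested lower (all but Batf), where 4.07% of all genes were called lower, and 0 higher, where 4.56% were (0 members at an unadjusted p under 0.05 by edgeR, and 0 called by DESeq2). CpG against unstimulated cells called 5 lower (25.5% of all genes) and 1 higher (20.1%), and CpG + IFNα against unstimulated cells called 5 lower (25.6%) and 2 higher (20.3%), Batf and, by edgeR but not by DESeq2, Atf3. The members thus stood further from the background in the comparison with IFNα, in which few genes changed, than in those with CpG. In the same order of comparisons, the median log2 fold change of the 7 members was -3.96, -2.81 and -2.54, whereas the medians of all genes tested were -0.00, -0.03 and -0.01. These 3 comparisons share the same unstimulated samples, so their agreement is not independent. Without unstimulated samples, CpG against IFNα called Jun, Atf3 and Batf higher (19.4% of all genes) and Fosb lower (24.7%), and CpG + IFNα against IFNα called Jun, Atf3 and Batf higher (18.7%) and Jund lower (25.5%). CpG + IFNα against CpG called Atf3 higher (2.95% of all genes) and 0 members lower (2.01%, with 0 members at an unadjusted p under 0.05 by edgeR and 0 called by DESeq2). The F test among the stimulated groups passed an adjusted p of 0.1 for 5 members, all but Fos and Fosb, and for 79% of all genes.

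**Figure D3:**
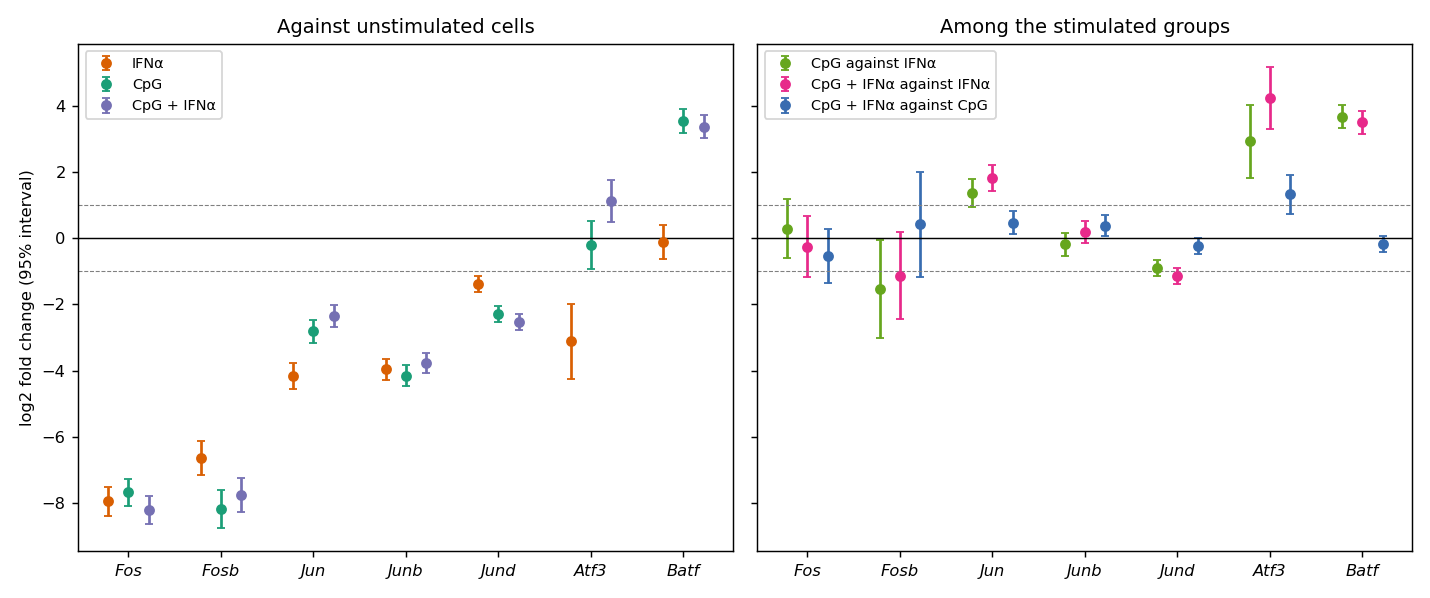
Log2 fold change of the 7 tested members with its 95% interval in each comparison, by edgeR. In the 3 comparisons with unstimulated cells, Fos, Fosb, Jun, Junb and Jund lie below 0 and Batf lies above 0 wherever CpG was given, whereas among the stimulated groups the values of Fos and Junb lie between -0.54 and 0.38. Fosb was at the limit of detection with CpG, so that its fitted values there are not exact.

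The interaction subtracts the log2 difference between IFNα and unstimulated cells from the log2 difference between CpG + IFNα and CpG. For a gene at the same level in all stimulated groups, it is as large as the gap to unstimulated cells. It was called positive for 6 of 7 members (3.09% of all genes) and negative for 0 (3.17% of all genes, with 0 members at an unadjusted p under 0.05 by edgeR and 0 by DESeq2). For Junb it was 4.34 on the log2 scale (standard error 0.22, adjusted p = 9.5e-16 by edgeR), which sets a log2 difference of -3.96 without CpG beside one of 0.38 with CpG. For Jun, -4.17 stood beside 0.46. For Fos, whose level was already low with CpG, -7.95 stood beside -0.54. Jund had the smallest positive interaction, 1.15, which was 0.99 and so under the fold for a call without unstimulated replicate 1. Batf was the exception, with an interaction of -0.05 (95% interval -0.62 to 0.53).

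How strict the rule was decided which other members met it. With the F test in place of the 3 pairwise comparisons among stimulated groups, an alternative chosen after seeing the data, Fos and Fosb met it (0.721% of all genes) and Junb did not, so that Fos alone met both forms (0.679% of all genes). With the replicate number as a block, a further member differed in this F test, so that Fos and Fosb could not both meet this form. Of all genes tested, 2.57% were called lower in all 3 stimulated groups, and most of these, 1.75% of all genes, were also called among the stimulated groups, as Fosb, Jun and Jund were. The 77 genes that met the main rule also held Rgs1, which encodes a regulator of G protein signaling, the orphan receptor genes Nr4a1 and Nr4a2, and the kinase gene Plk2.

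The remaining AP-1 and related bZIP genes were mostly scarce, and 6 of 13 were tested. Of these, 2 were called higher and 1 lower in each group with CpG, beside 20.1% and 25.5% of all genes with CpG and 20.3% and 25.6% with CpG + IFNα. Fosl1, the FOS relative FRA-1, had no count in any unstimulated sample, 5.77 ± 0.775 CPM with CpG and 19.4 ± 3.003 CPM with CpG + IFNα (SD, n = 3 each). Against the limit of 3 counts per unstimulated sample it was at least 2.02-fold higher with CpG and at least 6.79-fold higher with CpG + IFNα. CpG + IFNα also exceeded CpG, by 1.76 on the log2 scale (adjusted p = 0.000104 by edgeR). The FOS genes therefore differed in direction, since Fos and Fosb fell and Fosl1 rose with CpG. Mafg, a small MAF partner of NRF2 and BACH proteins, rose, with log2 fold changes of 1.39 with CpG and 1.74 with CpG + IFNα (adjusted p = 1.77e-09 and 3.88e-12 by edgeR). Maf held 61 counts over the unstimulated samples and 3 over the CpG samples, an unstimulated level 32.3 times that with CpG (95% exact interval 10.6 to 161, counting error only). Atf2, Atf7 and Mafk were called in none of these comparisons.

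Immediate-early genes outside AP-1 moved in the same direction as Fos in most cases. Of 16 tested, 13 were called lower with IFNα (4.07% of all genes), and each of the other stimulated groups had 15 lower (25.5% and 25.6% of all genes) and 1 higher (20.1% and 20.3% of all genes). The median log2 fold changes were -1.83, -4.35 and -4.17 in the order IFNα, CpG and CpG + IFNα, and that with CpG was -3.83 when the 2 genes that CpG brought to the limit (Egr3 and Nr4a2) were placed at their bounds. The exception was Gadd45b, a stress and NF-κB target gene, at 2.12 with CpG and 3.07 with CpG + IFNα. The falls were uneven in IFNα. Klf4 and Dusp1 had log2 fold changes of -4.79 and -5.38, while Btg2, an antiproliferative gene, was at 0.45 with IFNα and fell by 3.50 with CpG. Apart only in unstimulated cells were 4 of the 16 (0.816% of all genes), Nr4a1, Nr4a2, Ier5 and Ppp1r15a, the last of which encodes a subunit that directs eIF2α dephosphorylation. Nr4a1 had log2 fold changes of -4.57, -4.88 and -5.55 in the order IFNα, CpG and CpG + IFNα.

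Among the MAP kinases and their upstream kinases, which drive Fos and Jun transcription and phosphorylate their proteins, 0 of 17 tested were called with IFNα in edgeR's test (4.07% of all genes lower, 4.56% higher), 3 were lower with CpG (25.5% of all genes) and 4 with CpG + IFNα (25.6% of all genes). These shares lie at or below those of all genes. DESeq2 also called 0 with IFNα, while 1 was higher and 4 were lower at an unadjusted p under 0.05 by edgeR, such as Mapk14 at -0.63 (adjusted p = 0.00546 by edgeR). With CpG and with CpG + IFNα, 0 were called higher by edgeR (20.1% and 20.3% of all genes) or by DESeq2. At an unadjusted p under 0.05 by edgeR, 6 were higher and 5 lower with CpG, and 5 higher and 8 lower with CpG + IFNα. With CpG, the log2 fold changes were -5.07 for Mapk11 (p38β) and -2.31 for Map3k1. Mapk11 held only 1 to 4 counts per CpG sample, so that its fitted value is not exact. Mapk12 (p38γ) was at the limit of detection with CpG, with 5 counts against 25 in unstimulated cells, a level 7.95 times as high in the latter (95% exact interval 2.99 to 26.6, counting error only). MAP kinase phosphatases, which switch off the kinases that induce many of them, were called lower for 6 of 8 with IFNα (4.07% of all genes) and for 4 of 8 in each group with CpG (25.5% and 25.6% of all genes). In the order IFNα, CpG and CpG + IFNα, Dusp1, itself an immediate-early gene, had log2 fold changes of -5.38, -6.88 and -7.27, and Dusp6, an ERK phosphatase, had -2.201, -4.94 and -6.37. With CpG + IFNα, Dusp1 held 1 to 7 and Dusp6 1 to 4 counts per sample, so that these last values are not exact. Dusp5 was higher with CpG + IFNα than with CpG, by 1.53 (adjusted p = 0.0199 by edgeR).

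Of 12 regulators of Fos and Jun transcription tested, 1 was called lower with IFNα (4.07% of all genes), Elk1, a cofactor of the serum response factor, at -1.41 (adjusted p = 0.01 by edgeR). With CpG 3 were lower, a share close to the 25.5% of all genes, and with CpG + IFNα 7 were lower (25.6% of all genes). Those lower in both were Mrtfa at -2.38 and -3.04, Mef2c at -2.11 and -2.72, and Elk3 at -1.03 and -1.80. Srf, the serum response factor gene itself, was at -0.03 with IFNα (adjusted p = 0.955 by edgeR). Binders of AU-rich elements, which control the decay of transcripts such as Fos, were called lower for 2 of 9 with IFNα (4.07% of all genes), Zfp36 and Zfp36l2, and for 3 of 9 with CpG (25.5% of all genes), where the log2 fold changes were -5.95 for Zfp36, -3.42 for Zfp36l2 and -3.32 for Zfp36l1. Hnrnpd, another of these binders, rose by 1.54 with CpG. Partners of BATF and NFAT, 7 in all, had 1 called lower with IFNα (4.07% of all genes) and 5 lower in each group with CpG (25.5% and 25.6% of all genes), which were Nfatc1, Nfatc2, Nfatc3, Bach1 and Bach2. Irf4, which binds with BATF, fell by 1.097 with IFNα and was at -0.57 and -0.08 with CpG and CpG + IFNα, while Batf itself rose in the groups with CpG. Of 9 heat shock genes, 1 was called lower with IFNα (4.07% of all genes), Hspa1b, which was at the limit of detection there, with 6 counts against 32 in unstimulated cells, a level 6.65 times as high in the latter (95% exact interval 2.74 to 19.4, counting error only). With CpG 6 were higher (20.1% of all genes) and 1 lower (25.5% of all genes), with Hspd1 at 3.58 and Hspa1b at -2.05, and with CpG + IFNα 7 were higher (20.3% of all genes).

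Correlations of log2 CPM over the 12 samples describe which genes had the pattern most like each member. They rest on 4 groups of 3 samples that share their libraries, so that any gene with similar group means correlates. Fos was nearest to Cbfa2t3 (Pearson's r = 0.994), Nr4a1 (0.964) and Ppp1r15a (0.960). Junb was nearest to Ppp1r15a (0.977), Cbfa2t3 (0.973) and Plk2 (0.972), and Fosb to Nfkbid (0.970), Rgs1 (0.968) and Nr4a1 (0.966). Jun was nearest to Pim1 (0.957), Ppp1r15a (0.950) and Lta (0.946). The patterns of the others had different neighbors, with Jund nearest to Klf6 (0.997), Lpcat1 and Tsc22d3, Atf3 nearest to Ndel1 (0.950), Pim3 and Mtf1, and Batf nearest to Cluh (0.996), Ppp1r14b and Polr2c. Among the members, Fos and Junb had r = 0.988, Jun and Jund 0.603, Fos and Atf3 0.00, and Jund and Batf -0.842.

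The 12 libraries held between 922450 and 2923865 UMI counts, with 922450 to 1103064 in the unstimulated ones. B cell markers, all 6 detected in every group, summed to 6502 to 7428 CPM in unstimulated cells, 6708 to 7553 CPM with IFNα, 1334 to 1482 CPM with CpG and 1188 to 1292 CPM with CpG + IFNα. The 6 myeloid markers in the table summed to 9.10, 25.7 and 4.41 CPM in the unstimulated samples and to at most 1.64 CPM in any stimulated sample, and all 6 were at 0 with IFNα. Markers of marginal zone B cells summed to 224 to 231 CPM in unstimulated cells, 89.8 to 124 CPM with IFNα, 43.6 to 57.0 CPM with CpG and 27.8 to 37.5 CPM with CpG + IFNα. Erythroid markers were highest in replicate 1 of every group, at 345 CPM in unstimulated replicate 1, the sample in which Atf3 was also high. Of the 3 NK cell markers in the table, Klrb1c and Nkg7 were at 0 in unstimulated cells, where Prf1 alone gave a sum of 3.53 to 4.55 CPM, against at most 1.82 CPM for all 3 in any stimulated sample. T cell markers stayed at or under 3.64 CPM in every sample. Markers of FO B cells themselves summed to 5132 to 5888 CPM in unstimulated cells, 3844 to 4658 CPM with IFNα, 939 to 1116 CPM with CpG and 881 to 997 CPM with CpG + IFNα. Plasma cell markers summed to 255 to 380 CPM in unstimulated cells, 181 to 210 CPM with IFNα, 186 to 205 CPM with CpG and 200.1 to 271 CPM with CpG + IFNα. The 3 markers of plasmacytoid dendritic cells summed to 1.82 to 7.49 CPM in unstimulated cells, 8.39 to 10.1 CPM with IFNα, 6.42 to 19.6 CPM with CpG and 20.01 to 22.1 CPM with CpG + IFNα. They did not move together, since Siglech was at 0 in every group, Cox6a2 had means of 0.357 CPM in unstimulated cells and 18.4 CPM with CpG + IFNα, and Ccr9 had 4.22 and 2.92 CPM. The summed myeloid, marginal zone and FO B cell markers, and those of plasma cells with IFNα or CpG alone, thus moved with the contrast in which Fos, Fosb, Jun, Junb and Jund fell, and their part in these results was not tested.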

How the data were processed

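RNA of sorted FO B cells was measured in 12 samples, 3 for each of 4 groups named by the labels. The deposited table holds raw UMI counts for each gene. Per the labels and the methods of the study, they used UMI-tools 1.1.2, Trim Galore 0.6.7, HISAT2 2.2.1 (GRCm38) and featureCounts 2.0.1, counted unique UMIs and extended Tlr9 at its 3′ end. The annotation release and strand setting are not given in the sources used here. Cells were sorted as FO B cells, and the labels do not say whether replicates came from separate mice, so p-values measure the spread between these samples.

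Here, edgeR 4.0.16 in R 4.3.3 scaled these counts by TMM, kept 9431 of 22561 genes by filterByExpr (by group), and ran glmQLFit and glmQLFTest on all 4 groups together, with 8 residual degrees of freedom, adjusting over all genes tested. The members and lists were chosen with earlier results of these data known. Named are all 8 members, called genes of each list with the largest changes (up to 3 per direction), and the 3 nearest genes by correlation. Other genes named, such as Srf, Mapk14, Btg2, Atf2, Atf7, Mafk and those named from the 77 genes, were chosen after their values were seen. All gene identifiers were found in GENCODE M21, which gave the positions, and promoter sequences are from RefSeq. Within groups no sample was a copy of another, since chi-square per degree of freedom was 1.897 to 6.31 over the 12 replicate pairs. Groups with at most 3 counts in every sample were treated as at the limit of detection. UMIs remove PCR copies, and intervals of pooled counts cover counting error only. Alternatives were DESeq2 1.42.0, other scalings, filters and thresholds, counts drawn down to the smallest total, only the groups compared, each sample left out, and a block for the replicate number.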

Additional observations from a re-analysis of the deposited data

Results flagged for a closer look

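The log2 difference between IFNα and unstimulated cells differed from that between CpG + IFNα and CpG for 6 of the 7 members tested, by the interaction term of edgeR's quasi-likelihood fit, which was called positive for 3.09% and negative for 3.17% of all genes. The former difference rests on the unstimulated samples, in which stimulation and time in culture cannot be told apart. For genes with similar levels in all stimulated groups, such as Fos and Junb, the interaction largely restates their gap to unstimulated cells. The interaction on the log2 scale was 7.41 for Fos, 7.04 for Fosb, 4.63 for Jun, 4.34 for Junb, 4.44 for Atf3 and 1.15 for Jund, with adjusted p-values by edgeR of 4.78e-11, 8.02e-06, 4.49e-15, 9.5e-16, 6.42e-06 and 8.94e-06. All 3 IFNα samples lay below all 3 unstimulated samples for each of these genes, and 32.4% of all genes tested had no overlap in either direction in this comparison. With CpG present, the change on adding IFNα was called for Atf3 alone, at 1.32 (adjusted p = 0.00152 by edgeR), a call that was lost by DESeq2 (adjusted p = 0.327). Without unstimulated replicate 1 the interaction was 2.89 for Atf3 and 0.99 for Jund (adjusted p = 4.66e-05 by edgeR), the latter under the fold for a call. For Fosb the samples with CpG alone were at the limit of detection, so that its interaction depends on how such counts are fitted.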

How the results depend on the processing

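Of 968 values of the members under alternatives, 941 kept their direction and their call by fold and adjusted p, 4 were newly called, 8 lost their call, and 15 changed sign, 1 of these with an adjusted p under 0.1. The number of members called moved by over 1.5 times in few cases, and the causes were not tested except where the stricter fold itself removes calls. With a log2 fold change over 2, CpG against IFNα and CpG + IFNα against IFNα each called 2 members in place of 4 (Atf3 and Batf, both higher, beside 5.51% and 5.68% of all genes called higher), and CpG + IFNα against CpG called 0 in place of 1 (1.59% of all genes higher). The last comparison called 0 members with DESeq2 (1.92% of all genes) and 2 (Jun and Atf3) by the adjusted p alone (15.4% of all genes). At a log2 fold change over 2, 4 members (Fos, Fosb, Jun and Junb) were apart only in unstimulated cells, in place of 2, beside 0.339% of all genes in place of 0.816%. The higher fold also removes calls among the stimulated groups, so that this part of the rule becomes easier to meet. Jun met it although it was 3.52-fold higher with CpG + IFNα than with IFNα (adjusted p = 7.59e-10 by edgeR). With each sample left out, between 2 and 3 members were apart only in unstimulated cells, with Fosb joining without IFNα replicate 1, IFNα replicate 2 or CpG replicate 2, settings in which the share of all genes also rose, to 1.06%, 1.47% and 1.22%. Of all genes, 77 met this rule in the full data, 141 without IFNα replicate 2, 121 without CpG replicate 2 and 159 without the filter on low counts. Atf3 with CpG + IFNα against unstimulated cells lost its call with DESeq2 (adjusted p = 0.159).

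Changes of sign touched values near 0 in all cases but 1. The interaction of Batf was 0.0288 with library size only, 0.0278 without rRNA and mitochondrial genes, 0.0159 without the filter and 0.0851 after drawing all libraries down to the smallest total, and between -0.29 and 0.13 with each sample left out. With each sample left out, Batf with IFNα against unstimulated cells lay between -0.31 and 0.12, Fos between -0.0897 and 0.53 in CpG against IFNα and between -0.55 and 0.21 in CpG + IFNα against IFNα, and Fosb between -0.0347 and 0.95 in CpG + IFNα against CpG. Atf3 with CpG against unstimulated cells lay between -0.63 and 1.36, the latter without unstimulated replicate 1.

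Replicate numbers were not taken to pair samples. Correlations of deviations between samples of the same number were between -0.07 and 0.20, and 5 of 18 were over 0.1, although 10 of 12 samples correlated best with their own number, a hint from the data and not the design. Further hints were that erythroid marker sums fell in the order of replicates 1, 2 and 3 in every group, and that heat shock sums were lowest in replicate 2 of every group. With the replicate number as a block, 5 members in place of 4 were called in CpG + IFNα against IFNα (Fosb joined, lower, adjusted p = 0.0931 by edgeR, beside 25.6% of all genes called lower), 6 in place of 5 of the 7 tested differed among the stimulated groups, where 79.7% of all genes did, 2 stayed apart only in unstimulated cells, and 48 of 49 member values kept their direction and call. Depth limits Fosl2 and, in stimulated cells, Fos and Fosb.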
